A study of Drosophila melanogaster with 6 samples.

Results

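The genes described here encode voltage-gated, calcium-activated and leak ion channels of Drosophila melanogaster and their auxiliary subunits. They were taken from a list of 41 symbols matched to the features of the deposited count table. Of these, 40 were found among 23932 features and 38 passed the filter on low counts. Ca-beta was the symbol that could not be matched by its current identifier and was not analysed here, and Ork1 and Irk1 were below the filter. RNA came from T4/T5 neurons, the direction-selective neurons of the optic lobe, which were sorted by GFP from dissociated brains of climbing third-instar larvae grown at 25 °C. Every larva carried the driver R23G12-Gal4 and UAS-CD8-GFP. In the Drgx knockdown group (3 libraries) the driver also expressed UAS-DRGX-IR, an inverted-repeat hairpin against the homeobox gene Drgx. In the control group (3 libraries) it expressed UAS-cherry-IR, a hairpin against a fluorescent protein that flies lack. By the order of the written genotypes, the insertions of the hairpins lie on different chromosomes. Any cell in which R23G12-Gal4 is active could enter the sort, and the labels give neither the number nor the sex of the larvae behind a library.

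Neurons set their excitability by the mix of channels they make. Sodium channels start action potentials, voltage-gated and calcium-activated potassium channels end them and space them, calcium channels couple them to transmitter release, and leak channels hold the resting potential. Auxiliary subunits carry these channels to the membrane and tune their gating. T4/T5 neurons are still young at the end of larval life, so the channel set seen here is that of cells early in their differentiation.

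Library totals ran from 29587960 to 37378266 counts in knockdown and from 31716526 to 44054609 counts in control. Drgx itself was at 729, 728.7 and 663.4 CPM (counts scaled to library size, with TMM factors) in knockdown and at 2110, 2156 and 2160 CPM in control, or 33% of control, although reads of the hairpin cannot be separated from those of the messenger RNA. The second principal component set knockdown replicate 2 apart from the other knockdown libraries, and the channel calls are therefore also given without it. Of 5 general neuronal markers, nSyb, brp and Syt1 were lower in knockdown, fne was higher and elav was at a log2 fold change of −0.02. Their summed level was 2707 to 2947 CPM in knockdown and 2306 to 2396 CPM in control. Of this sum, fne alone held 1200 to 1337 CPM in knockdown and 489.7 to 577 CPM in control. It was the 1 marker of the 5 with a log2 fold change above 0. Of the 9 T4/T5 lineage transcription factor genes, SoxN, Sox102F, dac and bi were lower by edgeR. The list summed to 3337 to 3503 CPM in knockdown and 4995 to 5284 CPM in control. In the same list acj6 was at 667.6 to 733 CPM in knockdown and 563.6 to 609 CPM in control (log2 fold change 0.22; adjusted p 0.071 with edgeR, 0.0086 with DESeq2 and 0.0458 with limma-voom), and fd59A was at 7.2 to 14.4 CPM in knockdown and 3.05 to 6.71 CPM in control without passing. Of 9 glial markers, 8 had a log2 fold change above 0. An unadjusted edgeR p under 0.05 was reached by 7, Gli among them, and by 1630 of all 9932 tested features. Gs2 and nrv2 were higher by edgeR and limma-voom, and wrapper and gcm also with DESeq2. In 5 of the 9, every knockdown library lay above every control library, where 10.9% of all tested features did. The list summed to 814.1 to 882.2 CPM in knockdown and 606 to 685.6 CPM in control. Most of that sum was nrv2, at 570.8 to 630 CPM in knockdown and 442.3 to 485.3 CPM in control. The defining glial factor, repo, overlapped between groups, at 7.68 to 11 CPM in knockdown and 8.08 to 12.8 CPM in control. Gli lay below every control library, at 1.54, 0 and 0.397 CPM in knockdown and at 4.81, 3.13 and 8.51 CPM in control, without passing (adjusted p 0.132). Progenitor and cell cycle markers summed to 1073 to 1199 CPM in knockdown and 1097 to 1198 CPM in control. None of them passed with edgeR (3 at an unadjusted p under 0.05) or limma-voom, and stg passed with DESeq2 (adjusted p 0.034), higher in every knockdown library than in any control library. The cholinergic genes VAChT and ChAT summed to 294.8 to 324.3 CPM in knockdown and 340 to 384.5 CPM in control, with no call by edgeR (1 at an unadjusted p under 0.05), DESeq2 or limma-voom. Photoreceptor markers summed to 108.4 to 132.5 CPM in knockdown and 117.8 to 123.5 CPM in control, with ninaE and Rh6 at 0 counts in all 6 libraries. Hemocyte markers summed to 4.19 to 12.8 CPM in knockdown and 2.68 to 9.84 CPM in control, with NimC1 at 0 throughout and Ppn higher in knockdown, and muscle markers to at most 7.09 CPM in knockdown and 6.12 CPM in control. The part of these markers in the channel values was not tested. In bulk RNA, fewer cells expressing a channel gene and less RNA per cell cannot be told apart.

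Of the 38 tested channel genes, 10 differed between Drgx knockdown and control (26.3%), 9 lower and 1 higher. The test was edgeR's quasi-likelihood test with a threshold of 0.05 on the Benjamini-Hochberg adjusted p, under which 6.21% of all 9932 tested features passed, 2.1% higher and 4.11% lower. The lower genes were the potassium channel genes Sh, Shal, eag and SLO2, the hyperpolarization-activated channel gene Ih, the calcium channel gene cac with the auxiliary gene stol, the sodium leak channel gene na and the potassium leak channel gene Task6. The higher gene was slo. The median log2 fold change was −0.25 over the 38 channel genes and 2.65e-05 over all tested features. Knockdown and control values did not overlap for 19 of the 38, 15 lower and 4 higher, where 23.3% of all tested features did not overlap, 12.4% lower and 10.9% higher. Without knockdown replicate 2, 8 of the 10 passed, and Shal and na were then at adjusted p 0.0576 and 0.0559. In that fit 5.26% of all tested features passed. Leaving out the other libraries in turn gave 7 to 11 calls, where 3.85% to 4.71% of all tested features passed.

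**Figure D1:**
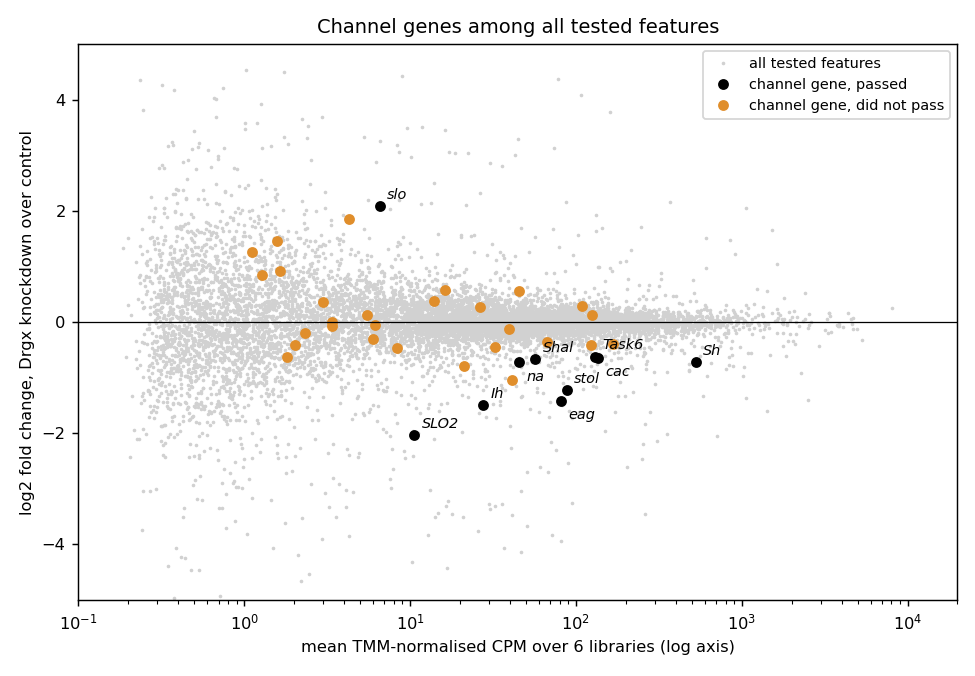
Each point is 1 tested feature, placed by its mean TMM-normalised CPM over the 6 libraries (x, log axis) and its log2 fold change of Drgx knockdown over control (y); grey points are all features, orange points channel genes that did not pass and black points the 10 that passed. The black points lie below 0 except slo, and 49 grey points lie beyond the y axis limits of −5 and 5.

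Calls were mostly among the better measured channel genes. Every called gene had at least 49 counts in each library. Among the 22 channel genes with a mean of at least 10 CPM, 9 passed (40.9%), where 8.4% of protein-coding features at that level did. Among the 16 tested channel genes under 10 CPM, slo alone passed (6.25%), where 6.21% of all tested features passed. The share over all features under 10 CPM was not taken. The intervals of many low genes are wide, so that differences of the size seen in Sh or cac were not detectable in them.

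**Figure D2:**
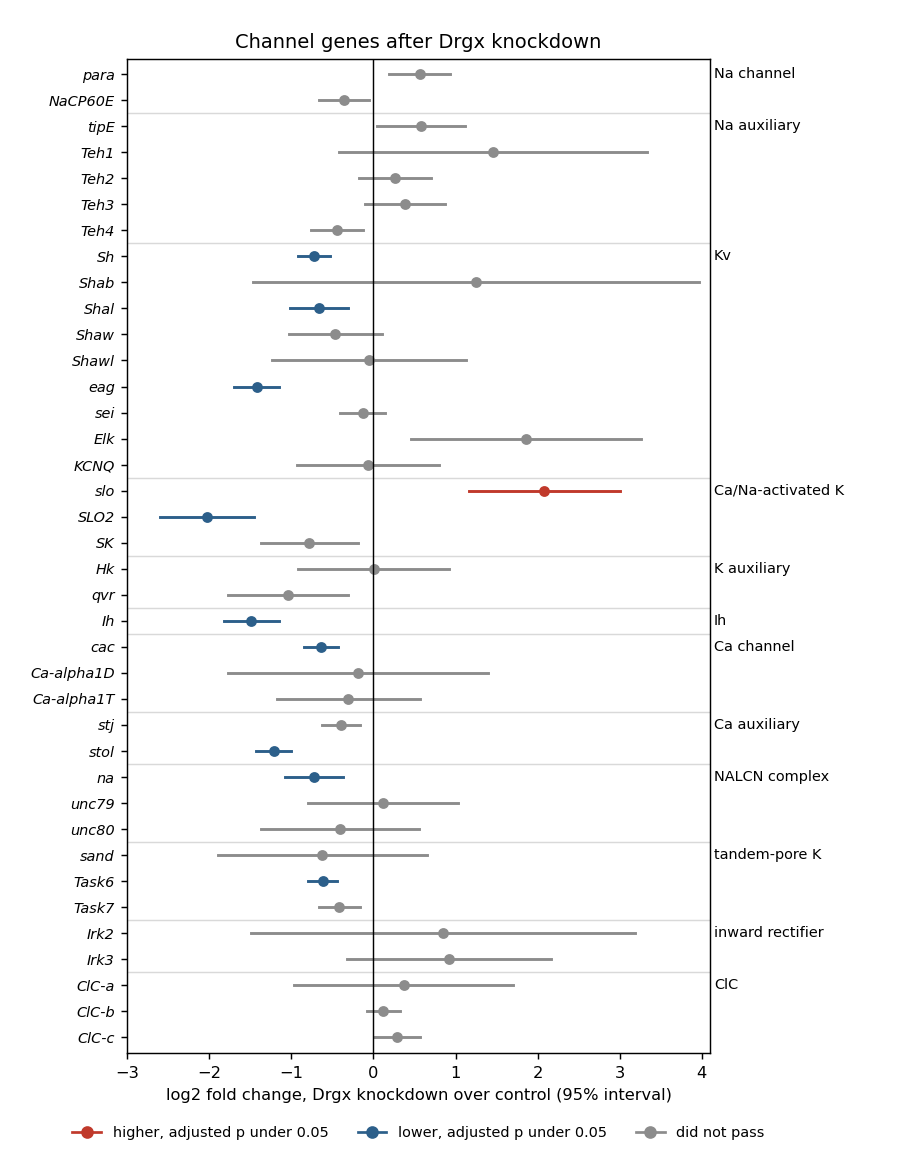
Points are log2 fold changes of Drgx knockdown over control from the edgeR fit and lines their 95% intervals, for the 38 tested channel genes grouped by role. The called genes run from −2.03 for SLO2 to 2.08 for slo, and the widest interval is that of Shab, from −1.46 to 3.97.

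Sodium channel genes did not pass the test. para encodes the main neuronal sodium channel of the fly. It was at 47.8, 55.1 and 60.3 CPM in knockdown and at 45.8, 30.1 and 34.7 CPM in control. All 3 knockdown libraries lay above all 3 controls, and the log2 fold change was 0.56 (SE 0.166; edgeR adjusted p 0.0913). DESeq2 (adjusted p 0.0152), limma-voom (0.0456) and a filter of at least 10 counts in every library (0.0486) put para past the threshold, as did leaving out control replicate 1 (0.0274). The related gene NaCP60E was at 47.1, 62 and 66.2 CPM in knockdown and at 80.4, 70.8 and 73.2 CPM in control. Every knockdown library lay below the controls (log2 fold change −0.36; SE 0.135; adjusted p 0.208). Its exons overlap those of pain and a transposable element over 218 bp.

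The share of para among the sodium channel genes was higher in every knockdown library than in any control library. On a per-kilobase scale, which divides CPM by the merged exon length, para took 49.3%, 46% and 46.6% of their sum in knockdown and 35.3%, 29% and 31.3% in control. The exact two-sided permutation test gave p = 0.1, the smallest that 3 against 3 libraries allows. Shares within families were compared 39 times here, 15 of them at that smallest p, and the Benjamini-Hochberg adjusted p of those was 0.26. These comparisons repeat each other in part. The shares of para and NaCP60E are complements, as are those of stj and stol. The Shaker and ether-a-go-go genes were counted in their own families and again among all voltage-gated potassium channel genes. The sum itself overlapped, at 5.95, 7.35 and 7.93 CPM per kilobase in knockdown and at 7.95, 6.38 and 6.81 CPM per kilobase in control.

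The sodium channel auxiliary genes of the TipE family gave no call among 5 tested by edgeR and none with DESeq2 or limma-voom. By edgeR 2 of them had an unadjusted p under 0.05, as did 1630 of all 9932 tested features. tipE, Teh2, Teh3 and Teh4 lie together on 3L between 4174859 and 4193788, and their log2 fold changes lay on both sides of 0. Teh4, the member with the highest level per kilobase, was at 30.1, 28.3 and 24 CPM in knockdown and at 35.5, 41.9 and 34.7 CPM in control, below every control library (log2 fold change −0.44, adjusted p 0.116). tipE was above every control library, at 19.4 ± 1.59 CPM in knockdown and 13 ± 4.36 CPM in control (SD, n = 3 each; log2 fold change 0.58, adjusted p 0.258). Teh2 and Teh3 were at 0.26 and 0.38 on the log2 scale and overlapped between groups. In the per-kilobase sum of the family, Teh4 took 33.7%, 26.3% and 29.1% in knockdown and 45.1%, 41.6% and 41.8% in control. tipE shares 777 bp of exon with CG18675, and Teh2 and Teh3 share 229 bp with each other. Teh1 was at 2.33 ± 1.46 CPM in knockdown and 0.842 ± 0.634 CPM in control.

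Of 9 voltage-gated potassium channel genes, Sh, Shal and eag fell (33.3%, where 6.21% of all tested features passed) and the other 6 did not pass. Sh (X, 17924307 to 18063247) encodes the fast-inactivating A-type channel and was the most abundant channel gene in CPM. It was at 364.9, 456.9 and 375.4 CPM in knockdown and at 661.1, 692.4 and 624.1 CPM in control. The highest knockdown library stayed well below the lowest control, and the log2 fold change was −0.72 (SE 0.0879, adjusted p 6.74e-04). Shal (3L, 19566851 to 19584568), which encodes the A-type channel of the cell body and dendrites, was at 50.1, 34.2 and 47.6 CPM in knockdown and at 78.3, 68.5 and 62.6 CPM in control. Its groups did not overlap (log2 fold change −0.67, SE 0.156, adjusted p 0.0335), but with 1 library left out it passed only without knockdown replicate 1, with adjusted p from 0.0427 to 0.136 over the 6 fits. It missed the threshold with scaling to library size only (0.0598).

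eag (X, 14955477 to 15009989), founding member of the ether-a-go-go family, had the largest fall of the voltage-gated group. It was at 48.2, 46.9 and 36.9 CPM in knockdown and at 112.5, 127.7 and 113.5 CPM in control. The knockdown mean was 37.3% of the control mean (log2 fold change −1.42, SE 0.122, adjusted p 5.84e-05), and no library overlapped. Its relatives did not pass. sei, the ERG channel gene, was at 41.9, 37.6 and 33.5 CPM in knockdown and at 41, 39.5 and 43.1 CPM in control, with a 95% interval of the log2 fold change from −0.41 to 0.15. Elk was low in all libraries, at 4.6, 7.05 and 8.58 CPM in knockdown and at 3.21, 0.391 and 2 CPM in control, without overlap. Its log2 fold change of 1.86 (SE 0.624) had an edgeR adjusted p of 0.143, and it passed with DESeq2 (0.0286) and limma-voom (0.0426).

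Within the ether-a-go-go family, eag took a smaller share and sei a larger one in every knockdown library than in any control library. Per kilobase, eag took 24.9%, 25.6% and 22.7% of the family's sum in knockdown and 44.7%, 49.7% and 44.1% in control. sei took 70.3%, 66.7% and 66.8% in knockdown and 52.8%, 49.9% and 54.4% in control. Neither share overlapped between groups. The family's sum was 15.3 to 18.2 CPM per kilobase in knockdown and 23.7 to 24.2 in control. sei shares 478 bp of exon with gammaSnap1 and ppk29 on the other strand, and whether counting used strand is not stated.

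The remaining voltage-gated potassium genes were weakly expressed and did not pass. Shaw was at 6.98 ± 1.21 CPM in knockdown and 9.62 ± 2.29 CPM in control (SD, n = 3 each), and Shawl at 6 ± 3.77 CPM in knockdown and 6.25 ± 2.94 CPM in control. KCNQ, the M-type channel gene, was at 3.3 ± 0.605 CPM in knockdown and 3.46 ± 1.16 CPM in control. Both Shaw genes and KCNQ overlapped between groups. Shab, the delayed rectifier, had 10, 62 and 87 counts in knockdown and 0, 29 and 45 counts in control. Summed over the 9 genes, the per-kilobase level was 48.7, 47.4 and 45.7 in knockdown and 73.7, 73.6 and 68.6 in control. The shares of Sh and Shal in this sum overlapped between groups and averaged 37.1% and 20.2% in knockdown and 40.2% and 21% in control.

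**Figure D3:**
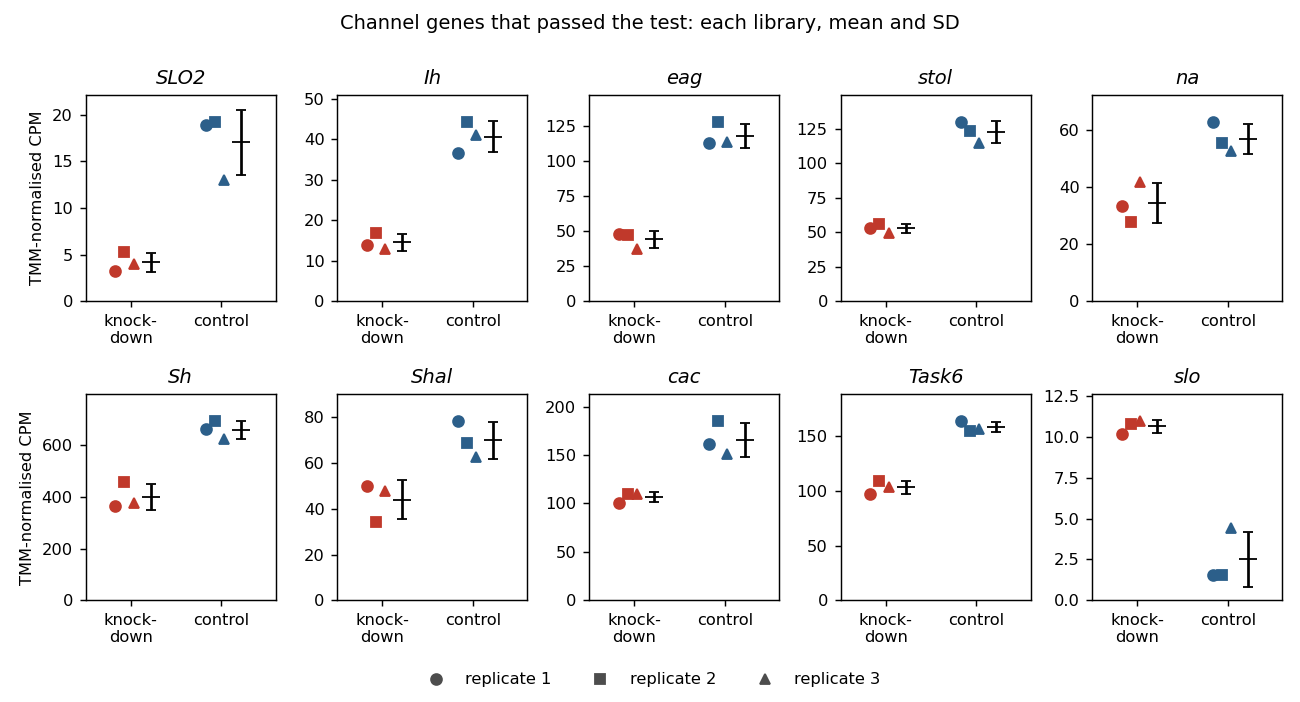
TMM-normalised CPM in each library for the 10 channel genes that passed, Drgx knockdown (red) left of control (blue), with each group's mean and SD (n = 3) in black and 1 symbol per replicate number. In all 10 panels the groups do not overlap; slo is the panel in which knockdown is higher.

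Of the channel genes that passed, the ion-activated potassium channel genes slo and SLO2 had the largest log2 fold changes, slo upward and SLO2 downward. slo (3R, 24662491 to 24711595) encodes the large-conductance calcium-activated channel. It was at 10.2, 10.8 and 11 CPM in knockdown and at 1.53, 1.56 and 4.44 CPM in control. The knockdown libraries were close together and above all controls, of which replicate 3 was the highest, and the log2 fold change was 2.08 (SE 0.411, adjusted p 0.0135). The fitted change ran from 1.83 to 2.78 when 1 library was left out, and the test missed the threshold without control replicate 1 (0.0601), control replicate 2 (0.0678) or knockdown replicate 3 (0.0554). SLO2 (2R, 10322195 to 10416996), which encodes a related channel opened by intracellular ions, was at 3.21, 5.28 and 4.02 CPM in knockdown and at 18.9, 19.2 and 13 CPM in control. The groups were far apart, and the knockdown mean was 24.5% of the control mean (log2 fold change −2.03, SE 0.256, adjusted p 8.17e-04).

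SK, the small-conductance calcium-activated channel gene and the member of this group with the highest level per kilobase, was at 14.1, 18 and 14.3 CPM in knockdown and at 15.8, 34.4 and 29.7 CPM in control. Control replicate 1 lay within the knockdown range, and SK did not pass (log2 fold change −0.78, SE 0.263, adjusted p 0.143). Without that library SK was at −1.05 (adjusted p 0.0114), and with DESeq2 its adjusted p was 0.0485. Within the group, slo took 38.4%, 32.7% and 38.6% of the per-kilobase sum in knockdown and 4.32%, 2.95% and 9.81% in control. SLO2 took 12.2%, 16.2% and 14.3% in knockdown and 54.1%, 36.7% and 29.1% in control. Neither share overlapped between groups, and the summed level was 2.62 to 3.24 CPM per kilobase in knockdown and 3.48 to 5.22 in control.

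**Figure D4:**
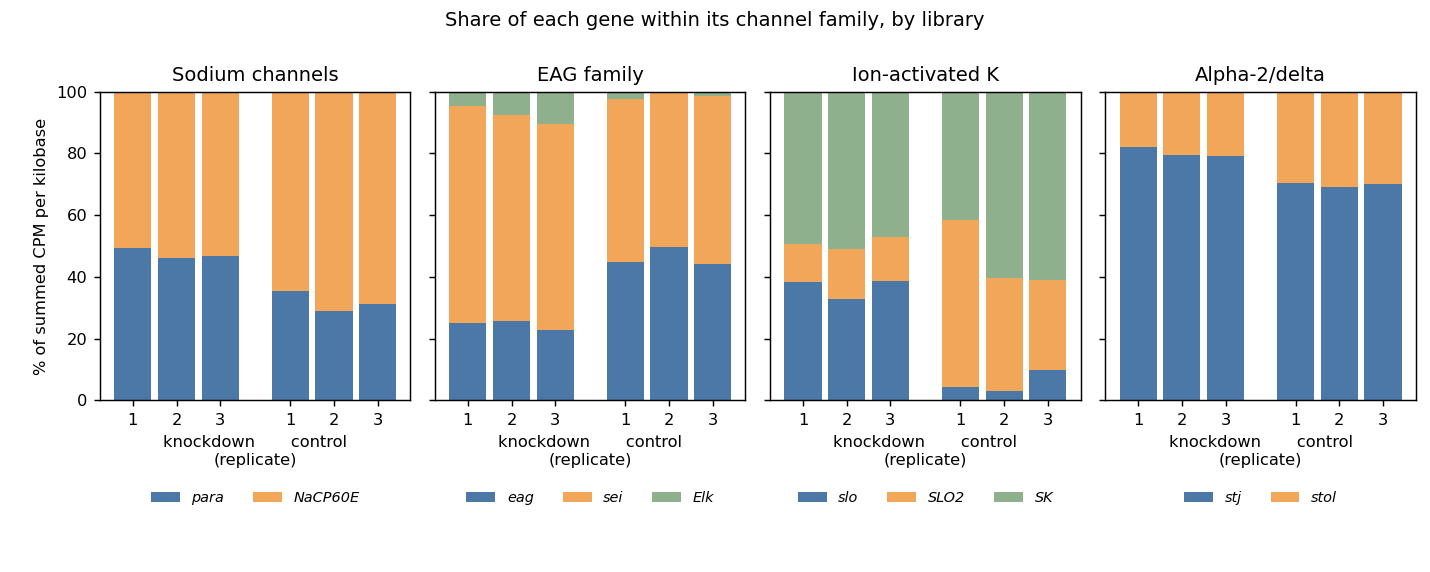
Bars show, for each library, how the summed CPM per kilobase of a channel family divides among its listed genes, with the 3 knockdown libraries left of the 3 control libraries in each panel. The alpha-2/delta panel leaves out Ca-Ma2d, which is not on the channel list. The share of para, sei, Elk, slo and stj is larger in every knockdown library than in any control library, and that of NaCP60E, eag, SLO2 and stol is smaller.

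The Shaker auxiliary genes did not pass by edgeR (0 of 2) or DESeq2, and 1 passed with limma-voom. By edgeR 1 had an unadjusted p under 0.05, as did 1630 of all 9932 tested features. qvr, or quiver, encodes a membrane-anchored protein that promotes Shaker channels. It was at 28.1, 12.9 and 40.1 CPM in knockdown and at 65.2, 54.1 and 48.5 CPM in control. The knockdown libraries were spread widely but all lay below the controls. By edgeR qvr was at −1.04 on the log2 scale (SE 0.325, adjusted p 0.111), and it passed with limma-voom (0.0432) and both other count filters (0.0366 and 0.0417). Hk, the beta subunit gene, was at 3.37 CPM on average in both groups, with a 95% interval of the log2 fold change from −0.92 to 0.92.

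Ih (2R, 14276130 to 14300095), the fly's gene for the hyperpolarization-activated cation channel, fell. It was at 13.9, 16.8 and 12.8 CPM in knockdown and at 36.7, 44.3 and 40.9 CPM in control. The groups were well separated, and the knockdown mean was 35.7% of the control mean (log2 fold change −1.49, SE 0.152, adjusted p 2.09e-04). With any 1 library left out Ih still passed, between −1.61 and −1.41.

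Among calcium channel genes, cac and stol fell. cac (X, 11931280 to 11985087) encodes the presynaptic calcium channel and was at 100.4, 109.3 and 109.6 CPM in knockdown and at 161, 185.1 and 150.8 CPM in control. All knockdown libraries lay below all controls (log2 fold change −0.64, SE 0.0936, adjusted p 0.00218). cac made up 91.7% to 96.8% of the per-kilobase sum of the 3 pore-forming genes in knockdown and 93.4% to 95.8% in control. The L-type gene Ca-alpha1D and the T-type gene Ca-alpha1T had means of 2.17 and 5.32 CPM in knockdown and 2.46 and 6.57 CPM in control, and did not pass.

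The alpha-2/delta genes encode extracellular subunits that bring calcium channels to the membrane. stol (2L, 15644183 to 15718272) was at 52.8, 56.2 and 49.6 CPM in knockdown and at 130.1, 123.8 and 114.7 CPM in control. Replicates were tight and the groups far apart, and the knockdown mean was 43% of the control mean (log2 fold change −1.22, SE 0.0946, adjusted p 2.79e-05). stj, which is needed for cac at synapses, had the highest level per kilobase of the calcium group. It was at 163.4, 145 and 126.4 CPM in knockdown and at 208, 185 and 178.7 CPM in control, without overlap, and narrowly missed the threshold (log2 fold change −0.40, SE 0.104, adjusted p 0.0588). It passed with DESeq2 (0.00566), limma-voom (0.0362) and both other count filters. stj took 79.2% to 82.2% of the sum of stj and stol in knockdown and 69% to 70.5% in control. That sum leaves out Ca-Ma2d, an alpha-2/delta gene outside the channel list. Ca-Ma2d averaged 2.38 CPM per kilobase in knockdown and 11.5 in control, beside 5.65 and 13.1 for stol.

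Of the sodium leak channel complex, the pore-forming gene passed. na (X, 14266367 to 14277416), or narrow abdomen, was at 33.4, 27.9 and 41.8 CPM in knockdown and at 62.9, 55.4 and 52.6 CPM in control. The groups did not overlap (log2 fold change −0.73, SE 0.157, adjusted p 0.0222). With 1 library left out it passed only without knockdown replicate 3, with adjusted p from 0.0108 to 0.0976. The genes of its partner proteins, unc79 and unc80, averaged 5.7 and 1.73 CPM in knockdown and 5.25 and 2.31 CPM in control. Their 95% intervals of the log2 fold change ran from −0.80 to 1.03 for unc79 and from −1.38 to 0.55 for unc80.

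Tandem-pore potassium channels carry resting leak currents, and Task7 and Task6 were among the most abundant genes of the set, while sand and Ork1 were low. Task6 (3R, 13667046 to 13674542) fell. It was at 97.4, 108.5 and 103.1 CPM in knockdown and at 163.6, 155 and 156.1 CPM in control, with little spread in either group (log2 fold change −0.62, SE 0.0773, adjusted p 7.85e-04). Task7 had the highest level per kilobase of all channel genes in both groups. It was at 119.3, 110.5 and 88.7 CPM in knockdown and at 143.5, 135.9 and 145.2 CPM in control, all below the controls, and did not pass (log2 fold change −0.42, SE 0.11, adjusted p 0.0597). With DESeq2 (0.0063), limma-voom (0.0344) and both other count filters it did. sand averaged 1.43 CPM in knockdown and 2.21 CPM in control, and Ork1 had 6 counts in knockdown replicate 2 and 0 in every other library.

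Irk2 and Irk3, genes of inward rectifier potassium channels, were weakly expressed. Irk3, the highest of them per kilobase, was at 2.47, 2.42 and 1.53 CPM in knockdown and at 0.624, 1.2 and 1.57 CPM in control. Irk2 averaged 1.64 CPM in knockdown and 0.909 CPM in control. Neither passed with edgeR (0 of 2), DESeq2 or limma-voom. Neither had an unadjusted edgeR p under 0.05, where 1630 of all 9932 tested features did. Irk1 had 0 counts in all 6 libraries. Its merged exons cover 5246 bp and coincide with those of CG46310 on the same strand over 3202 bp, as many as its longest transcript holds. How shared reads were counted is not given, so the 0 sets no limit on expression from the shared bases. It bears only on transcripts that carry the remaining exon bases.

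The ClC genes gave no call among 3 with edgeR, DESeq2 or limma-voom. By edgeR 1 had an unadjusted p under 0.05, as did 1630 of all 9932 tested features. ClC-b, a relative of the chloride transporters of intracellular membranes, was at 137.6, 117.9 and 137.5 CPM in knockdown and at 115, 120.5 and 126.2 CPM in control. The groups overlapped, with a 95% interval of the log2 fold change from −0.08 to 0.32. ClC-c, also related to intracellular transporters, was at 119 ± 13.5 CPM in knockdown and 97.8 ± 14 CPM in control (SD, n = 3 each; log2 fold change 0.28, adjusted p 0.289). These intervals exclude falls of the size measured for Task6. ClC-a, a gene expressed in glia, was at 3.34 ± 2.16 CPM in knockdown and 2.59 ± 0.814 CPM in control.

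Levels per kilobase ranked leak, intracellular chloride, alpha-2/delta and Shaker transcripts first in both groups. In knockdown the order began with Task7 at 61.5 ± 9.14, ClC-b at 49.5 ± 4.28, ClC-c at 30.1 ± 3.42, stj at 23.1 ± 2.96, Task6 at 20.9 ± 1.12 and Sh at 17.5 ± 2.21 CPM per kilobase. In control the order began with Task7 at 81.9 ± 2.87, ClC-b at 45.6 ± 2.12, Task6 at 32.1 ± 0.945, stj at 30.4 ± 2.46, Sh at 28.9 ± 1.5 and ClC-c at 24.7 ± 3.54 CPM per kilobase (SD, n = 3). Task7 and ClC-b overlapped in knockdown and were separate in control, and Task6, stj and Sh overlapped from each to the next in both groups. para was 19th of 40 in knockdown and 21st of 40 in control. With the longest annotated transcript in place of merged exons, Sh was at 32.8 CPM per kilobase in knockdown and 54.1 in control, and in control it then stood above ClC-b.

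**Figure D5:**
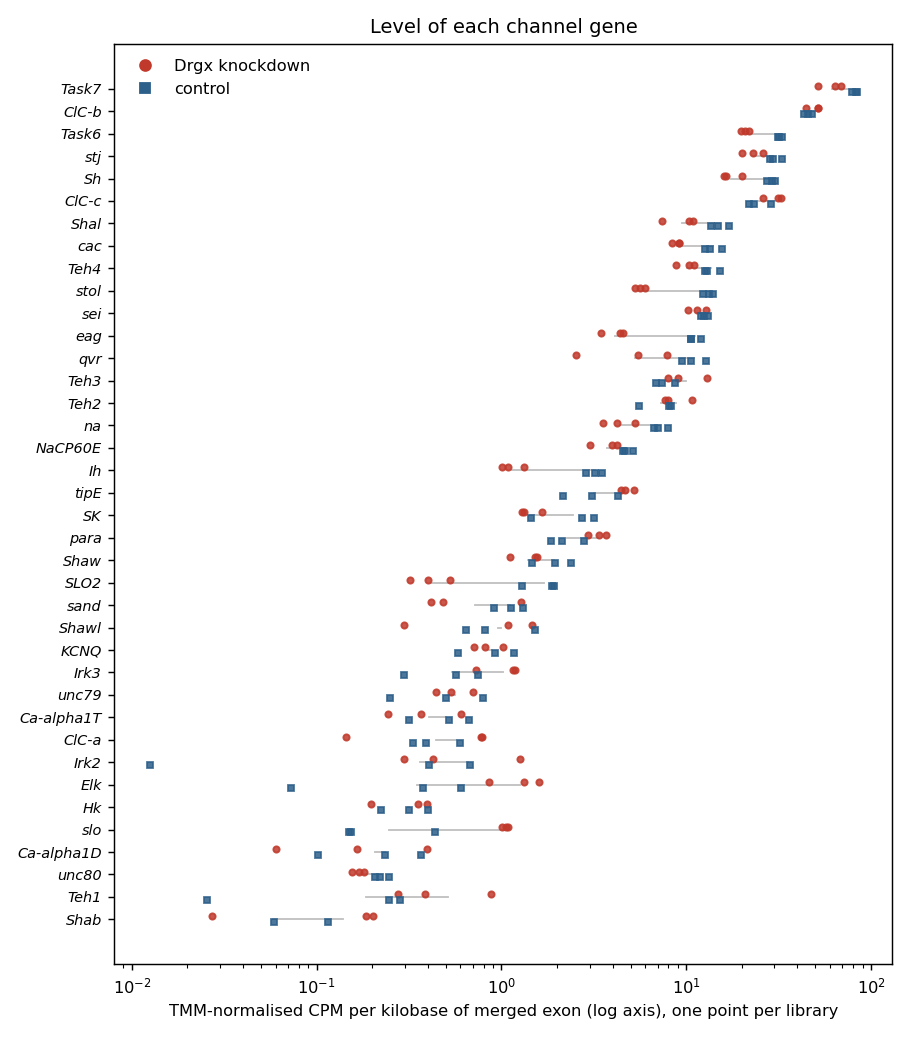
CPM per kilobase of merged exon (x, log axis) for each detected channel gene, ordered by its control mean (38 tested genes), with red circles for Drgx knockdown libraries and blue squares for control libraries. A grey line joins the group means; Task7 is at the top in both groups, and Shab in control replicate 1, with 0 counts, cannot be shown on a log axis.

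Span, exon overlap and chromosome did not enter the choice of genes. The annotated span of the called genes had a median of 51456 bp, against 14219 bp for the 28 tested channel genes that did not pass and 2618 bp for all tested features. Long span was not common to all of them, since Task6 covers 7497 bp, na 11050 bp and Shal 17718 bp. None of the 10 shares exon bases with another annotated gene, where 15 of the 40 found do. Reads of Shawl, KCNQ, Hk, Ca-alpha1D, unc79, sand, Irk3, ClC-b and ClC-c could therefore be shared with neighbours, over 60 bp in ClC-b to 1063 bp in KCNQ. Sh, eag, cac and na lie on the X chromosome, so that 4 of 8 tested X-linked channel genes passed, all lower, and 6 of 30 autosomal ones. Over all features 5.42% of the X-linked ones passed and 6.39% of the autosomal ones, and the X-linked median was −0.00896 on the log2 scale. The dosage compensation RNA roX2, made in males, was at 330.6, 377.2 and 355.6 CPM in knockdown and at 432.6, 519.2 and 550.3 CPM in control (log2 fold change −0.50, adjusted p 0.00938), and roX1 was at −0.15 (0.0305). The sex of the larvae is not given, and its part in these values was not tested. Of the 27 tested pore-forming genes 9 passed (33.3%), and of the 11 auxiliary and complex genes stol did (9.09%), where 6.21% of all tested features passed. The difference between these shares was not tested, and with DESeq2 stj passed too, with limma-voom stj and qvr.

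Further lists of excitability genes, also chosen with earlier results known, were examined beside these. Over all tested features 6.21% passed, 2.1% higher and 4.11% lower. Of 7 accessory genes tested, 4 fell (57.1%). Ca-Ma2d (2L, 16231475 to 16241527), a further alpha-2/delta gene, was at 16.2, 9.06 and 16.5 CPM in knockdown and at 71.7, 67.4 and 63.4 CPM in control, beside −1.22 for stol on the log2 scale (log2 fold change of Ca-Ma2d −2.27, SE 0.212, adjusted p 1.09e-04). Mid1, which encodes a protein that promotes the na current, was at 150.4, 140.5 and 145.5 CPM in knockdown and at 234.1, 212.1 and 191.5 CPM in control (log2 fold change −0.55, SE 0.0856, adjusted p 0.00335). CG5890, a predicted relative of potassium channel interacting proteins, was at 1.14, 0 and 0.582 CPM in knockdown and at 4.78, 6.78 and 8.3 CPM in control (log2 fold change −3.51, adjusted p 0.0474), and passed in 2 of the fits with 1 library left out. The calcium sensor gene Frq2 was at −0.76 (adjusted p 0.0465) and passed in 1 of those fits.

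Of 14 tested genes for TRP and other cation channels, Trpgamma alone passed (7.14%), near the 6.21% over all tested features. It fell, at 11.1, 13.2 and 21.6 CPM in knockdown and at 44.6, 53.8 and 54.7 CPM in control (log2 fold change −1.73, SE 0.232, adjusted p 0.00117). Of 5 tested chloride genes, Best1 was higher, at 7.68 ± 0.522 CPM in knockdown and 3.34 ± 0.646 CPM in control (SD, n = 3 each; log2 fold change 1.20, adjusted p 0.0269). Of 4 tested innexins, Inx3 was higher, at 80.6 ± 4.48 CPM in knockdown and 59.9 ± 3.21 CPM in control (log2 fold change 0.43, adjusted p 0.0266). With 1 library left out, Best1 and Inx3 never passed (adjusted p 0.0543 to 0.101 and 0.054 to 0.13). None of 4 tested further potassium channel genes passed with edgeR, DESeq2 or limma-voom. None had an unadjusted edgeR p under 0.05, where 1630 of all 9932 tested features did.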

How the data were processed

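Libraries were made with SMART-Seq v4, which amplifies full-length complementary DNA without molecular tags. The authors deposited raw counts per annotated feature, 1 column per library. Per the submitters' processing notes the build was BDGP6 and STAR and DESeq2 were used, with no roles given; the counting program, annotation release and strand setting are not given in the sources used here. Symbols, positions and exon lengths came from the Ensembl annotation of BDGP6.54, matched by identifier. Of 23932 identifiers, 81 had no entry there. The filterByExpr function of edgeR 4.0.16 (R 4.3.3), with a minimum of 10 counts, kept 9932 features, and TMM set the scaling. edgeR's quasi-likelihood test had group as its only term, with Benjamini-Hochberg adjustment over all tested features. A standard error is the size of the log2 fold change over the root of its F statistic, and 95% intervals use the degrees of freedom of the fit. The labels do not say that libraries came from separate animals or cultures, so p-values measure the spread between these libraries, which may be technical.

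Members and lists were chosen with earlier results of these data known. Values in every library are given for called members and for the member of each role group with the highest level per kilobase; para, NaCP60E, sei, Elk and roX2 were added after their values were seen, as were the shares within families. Of the further lists, Stac matched no single symbol and CG9194 is galene. Alternatives were DESeq2 1.42.0, limma-voom (limma 3.58.1), other scalings and filters, a replicate block and leaving out each library. The tests were run first on simulated counts with 4-fold changes, of which edgeR recovered 193 of 193 with 10 false calls. The simulated spread was smaller than the common spread of these data. The run therefore checks the code and does not give the power or error rate for the smaller changes reported here.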

Additional observations from a re-analysis of the deposited data

How the results depend on the processing

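All 10 called channel genes kept their direction in every fit and passed with DESeq2's size factors inside edgeR, both other count filters, DESeq2, limma-voom and the replicate block; with scaling to library size only, Shal did not. DESeq2 and limma-voom each called 15 channel genes (39.5%), adding para, Elk, stj and Task7 in both. Over all tested features 617 passed (6.21%), against 952 with DESeq2 (9.59%, with 381 higher and 571 lower). With limma-voom 690 passed (6.95%, with 239 higher and 451 lower). Leaving out 1 library gave 399 to 556 calls over all features, the lowest without control replicate 2, and 7 to 11 among channel genes, with medians of −0.30 to −0.23 over the tested ones. Sh, eag, SLO2, Ih, cac, stol and Task6 passed in all 6 of these fits.

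Hk, Shawl, KCNQ, Ca-alpha1D, unc79 and Irk2, which did not pass, changed sign; Irk2 (0.85 with all libraries) did so without knockdown replicate 2. Hk was at −0.045 with limma-voom and −0.019 with the replicate block. Leaving out 1 library gave Hk −0.20 to 0.25, Shawl −0.52 to 0.39, KCNQ −0.30 to 0.18, Ca-alpha1D −1.06 to 0.29, unc79 −0.21 to 0.57 and Irk2 −0.019 to 1.63; the cause was not tested.

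The replicate block gave 556 calls over all features and 11 among channel genes, adding stj. Same-numbered libraries shared only a number: their deviations from the group means correlated at 0.0246, −0.017 and −0.0591, and not every library correlated best with its own number. CG5890, Best1 and Inx3 did not pass under the block (adjusted p 0.0761, 0.0608 and 0.059).

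The shares of eag, sei, Elk, slo, SLO2, Teh1, Teh3 and Teh4 in their families did not overlap between groups with longest-transcript lengths either. This alternative was chosen after seeing the data and is a weak check where the lengths hardly differ. The merged exons and the longest transcript cover 3278 and 3197 bp in sei and 5351 and 5336 bp in Elk. They are equal in Teh1, Teh3 and Teh4, and differ more in SLO2 (10039 and 7234 bp). The alternative is no check of para and stj, whose shares are taken against NaCP60E alone and stol alone. There a change of length cannot alter the order of the libraries. With these lengths para took 42.5% to 45.7% in knockdown and 26.1% to 32.1% in control.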
